A study of Mus musculus with 48 samples.

Results

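The Cep genes code for proteins of the centrosome and of the basal body of the cilium. They were taken as every row of the deposited expression table whose symbol is Cep followed by a number, with or without the ending l1, which gave 33 of 24444 genes. Of these, 32 are described, and all counts below are over these 32. The values come from polyA RNA-seq of dissected cortex from 48 male C57BL/6J mice, with 1 hemisphere taken per mouse. There were 4 ages (E14.5 and postnatal months 1, 6 and 12), each with 6 WT mice and 6 *Chd8* V986*/+ mice (HET below). HET mice carry a premature stop codon in a single copy of *Chd8*, which codes for a chromatin remodeler, made by CRISPR/Cas9 in C57BL/6J blastocysts, and the WT mice were littermates from the same crosses. The allele is constitutive, so every tissue and cell type carried it, and all mice shared the C57BL/6J background. Expression is given as variance-stabilized (VST) values, a log2-like scale where 1 unit stands for about a 2-fold change when a gene is well expressed and for more than that near the floor of the scale. VST values are not corrected for transcript length, so a level is compared between mice and never between genes.

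A centrosome holds a pair of centrioles inside a cloud of pericentriolar material, which nucleates microtubules. Centrioles are copied once per cell cycle and organise the poles of the mitotic spindle, and in cells that leave the cycle the older centriole docks at the membrane through its appendages and grows a primary cilium. In the embryonic cortex the radial glia divide at the ventricle while their primary cilia face the ventricular fluid, and mutations in several CEP genes cause small brain size or ciliopathies in people. At E14.5 the cortex is rich in dividing progenitors, whereas at 1 month and later nearly all of its neurons have stopped dividing and most glia divide rarely.

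The 32 genes were sorted by the known role of their protein into 12 genes of centriole assembly and duplication, 5 of the centriole linker and pericentriolar material, 7 of the appendages, 6 of the cilium, transition zone and centriolar satellites, the midbody gene *Cep55*, and *Cep95*, which was given no role. The promoter windows of 6 genes with large changes between E14.5 and 1 month are shown first, since these changes are the main result. Each window runs from 250 bases before to 50 bases after the RefSeq start site (GRCm38.p6, a later build than the mm9 build used for the expression table). The windows of *Cep55* (chr19:38054734-38055033, plus strand), *Cep72* (chr13:74062236-74062535, minus strand), *Cep112* (chr11:108425016-108425315, plus strand) and *Cep170* (chr1:176813904-176814203, minus strand) belong to genes with large decreases. Those of *Cep19* (chr16:32099539-32099838, plus strand) and *Cep126* (chr9:8134397-8134696, minus strand) belong to the genes that increased most. Capitals mark the motifs searched on both strands, which were the CHR element TTTGAA, found at many genes of the late cell cycle, the E2F-like elements TTCCCGCC and TTTCCCGC, the CCAAT box, and a full palindromic X-box, which ciliary RFX factors bind. The E2F-like words can overlap each other.
Cep55: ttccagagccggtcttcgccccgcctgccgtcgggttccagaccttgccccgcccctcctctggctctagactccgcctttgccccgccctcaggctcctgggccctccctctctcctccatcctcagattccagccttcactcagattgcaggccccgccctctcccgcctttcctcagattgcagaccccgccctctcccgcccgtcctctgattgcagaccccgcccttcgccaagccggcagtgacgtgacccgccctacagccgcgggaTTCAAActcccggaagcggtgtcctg
Cep72: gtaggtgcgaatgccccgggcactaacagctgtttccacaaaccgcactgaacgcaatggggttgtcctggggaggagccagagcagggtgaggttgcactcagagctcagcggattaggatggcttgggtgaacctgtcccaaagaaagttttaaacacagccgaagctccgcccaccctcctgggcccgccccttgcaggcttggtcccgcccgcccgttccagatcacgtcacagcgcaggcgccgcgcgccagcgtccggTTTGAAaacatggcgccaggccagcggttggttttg
Cep112: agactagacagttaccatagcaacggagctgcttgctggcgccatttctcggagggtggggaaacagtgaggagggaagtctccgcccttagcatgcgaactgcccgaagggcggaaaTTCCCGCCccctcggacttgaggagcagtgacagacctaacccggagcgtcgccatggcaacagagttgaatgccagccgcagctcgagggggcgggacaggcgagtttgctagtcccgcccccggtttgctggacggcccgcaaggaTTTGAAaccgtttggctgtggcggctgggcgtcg
Cep170: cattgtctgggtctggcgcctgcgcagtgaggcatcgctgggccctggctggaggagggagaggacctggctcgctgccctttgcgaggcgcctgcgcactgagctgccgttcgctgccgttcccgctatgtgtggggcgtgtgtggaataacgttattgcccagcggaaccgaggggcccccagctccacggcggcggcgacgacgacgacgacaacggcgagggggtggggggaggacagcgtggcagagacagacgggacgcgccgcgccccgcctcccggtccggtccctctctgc
Cep19: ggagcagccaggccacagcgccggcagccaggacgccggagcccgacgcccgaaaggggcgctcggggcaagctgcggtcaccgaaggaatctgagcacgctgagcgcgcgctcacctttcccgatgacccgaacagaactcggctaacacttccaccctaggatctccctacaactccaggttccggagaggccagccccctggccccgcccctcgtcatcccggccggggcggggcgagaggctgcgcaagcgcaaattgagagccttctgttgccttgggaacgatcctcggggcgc
Cep126: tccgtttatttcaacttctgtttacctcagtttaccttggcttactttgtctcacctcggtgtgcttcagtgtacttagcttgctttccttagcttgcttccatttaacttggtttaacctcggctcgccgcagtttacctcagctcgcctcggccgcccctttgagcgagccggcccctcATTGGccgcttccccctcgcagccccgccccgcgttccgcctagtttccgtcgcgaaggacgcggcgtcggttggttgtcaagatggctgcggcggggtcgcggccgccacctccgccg

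The *Cep55*, *Cep72* and *Cep112* windows each held a CHR match just inside the transcribed part, beginning 24, 14 and 16 bases after the start site (on the opposite strand for *Cep55*), and the *Cep112* window also held TTCCCGCC. In another listed window of *Cep55*, not printed, the same match began 33 bases before the start site of that window. No CHR or E2F-like match lay in the *Cep19*, *Cep126* or *Cep170* window printed here, while another listed window of *Cep170*, not printed, held a CHR match 60 bases before its start site, so that *Cep170* is counted among the genes with a match. Of the 32 genes, 28 had a window in the RefSeq table, and 24 of these 28 were called lower in WT at 1 month. A CHR match was found in 9 of the 28 genes (32.1%), against 20.2% of 27025 genes in the table, and all 9 were among the genes called lower. TTCCCGCC was found in 5 (17.9%, against 2.52%), TTTCCCGC in 1 (3.57%, against 1.24%), the CCAAT box in 15 (53.6%, against 41.1%) and the X-box in none (against 0.152%). The X-box count is of the full palindromic word alone. Runs that differ from it by 1 letter, which the printed *Cep112* window holds, were not counted. The count therefore does not say that these windows lack looser forms of the X-box. A match is a run of letters and not a site of binding.

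*Chd8* itself was lower in every HET mouse than in any WT mouse at each age, by 0.54 to 0.67 on the VST scale. Of the 48 libraries, 3 stood apart in how genes with long transcripts compared with genes with short transcripts. Genes were put into 4 classes by transcript length, and the median deviation from the group in the longest class minus that in the shortest class was -0.44 in HET E14.5 replicate 1, -0.31 in WT E14.5 replicate 1 and -0.41 in WT 12 months replicate 6, against -0.05 to 0.19 in the other 45 libraries. The Cep genes have long transcripts, with a median of 3936 bases against 3225 bases over the genes used for this measure, and 13 of the 30 with a known length were in the longest class. Results that rest on them are also given without them. At E14.5 the mean level of 24 markers of midbrain, hindbrain and spinal cord was 3.44 to 7.02 in WT and 3.47 to 4.70 in HET, and all 20 of them that were tested had a lower HET mean (median -1.09), with 5 at an unadjusted p below 0.05 and none called.

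**Figure D1:**
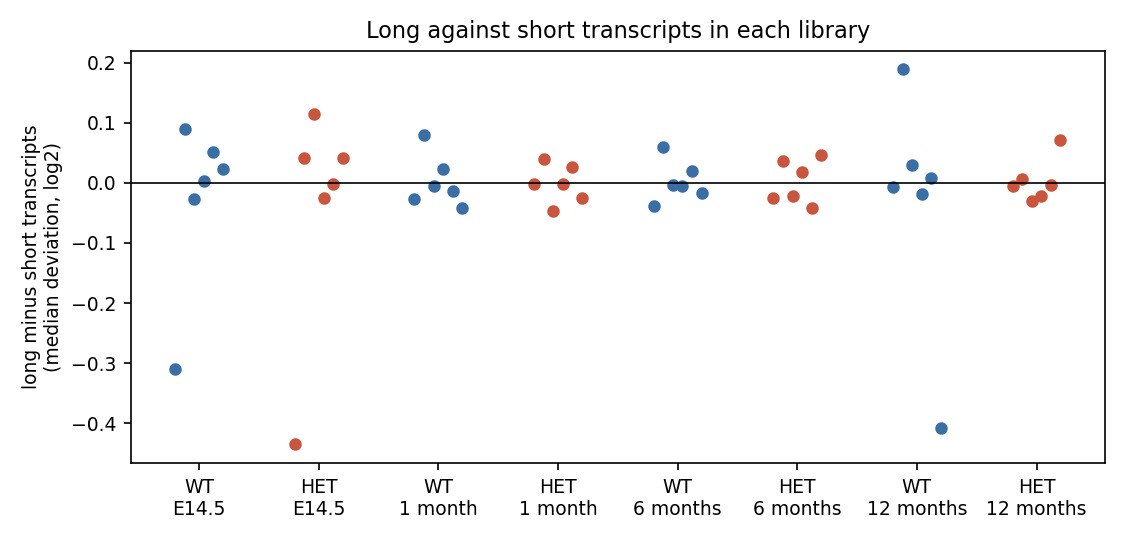
Each point is a library, and the vertical axis is the median deviation from the group of genes in the longest of 4 transcript length classes minus that of the shortest class, in log2 units. The points at -0.44, -0.31 and -0.41 lie apart from the other 45, which lie between -0.05 and 0.19.

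The first question was how Cep expression changed as the cortex passed from a dividing to a mature tissue. In WT mice 28 of the 32 Cep genes were lower at 1 month than at E14.5 and 2 were higher. A gene was called changed when its limma p-value, adjusted over all genes tested by the Benjamini-Hochberg method, was below 0.1. The age step was wide across the transcriptome, with 42.3% of 17285 tested genes called lower and 43.4% called higher, so it is the direction of the Cep genes and not the number called that set them apart from this background. The median difference was -0.96 for the Cep genes and 0.02 for all tested genes. Called decreases of at least 1 were seen in 15 Cep genes (46.9%), against 17.7% of tested genes. The WT mice of the 2 ages did not overlap for 27 of the decreases, where 33.5% of tested genes were lower in the same way. They did not overlap for both increases either, for which the share of tested genes is not given. Without the skewed library WT E14.5 replicate 1 the median was -0.98 and 30 genes were still called. In bulk tissue, fewer cells of a type and less RNA per cell cannot be told apart.

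**Figure D2:**
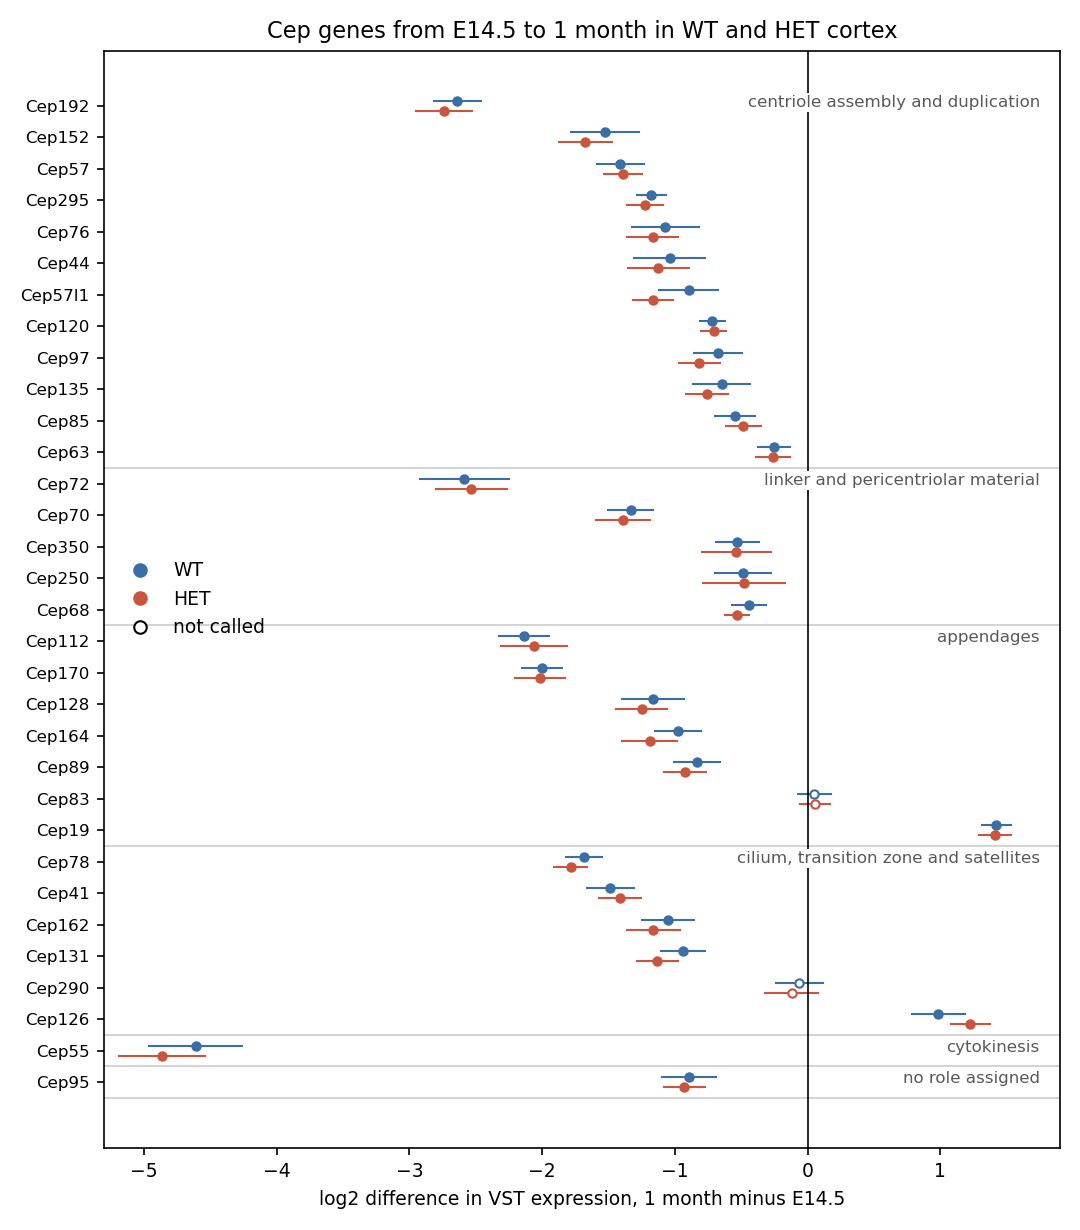
Points give the log2 difference in VST expression at 1 month minus E14.5 for each of the 32 Cep genes, grouped by role, in WT (blue) and HET (red) mice, with bars for the 95% confidence interval of limma. Filled points were called, and 28 of them lie below 0 and 2 above 0 in each genotype.

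*Cep55*, which recruits the membrane-cutting machinery to the midbody at the end of cell division, showed the largest change. Its lowest, median and highest WT values were 8.66, 8.85 and 9.47 at E14.5 and 3.997, 4.28 and 4.73 at 1 month. Every embryonic value was more than 3 units above every postnatal one, and the difference was -4.61 ± 0.16 (SE, n = 6 against 6, adjusted p = 3.3e-13 by limma), or 24.4-fold on a linear reading of the scale. The gene lies at chr19:38129515-38148915 on the plus strand of mm9. In HET mice the values were 8.82, 9.10 and 9.40 at E14.5 and 3.61, 4.31 and 4.62 at 1 month, a difference of -4.87 ± 0.15 (adjusted p = 2.6e-14 by limma).

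All 12 genes of centriole assembly and duplication fell in WT, by 0.25 to 2.64, and in each of them the 6 embryonic mice lay above the 6 mice of 1 month. The largest fall was that of *Cep192*, which recruits the duplication kinase PLK4 and the pericentriolar material to the centriole. Its WT values were 10.23, 10.47 and 10.83 at E14.5 and 7.76, 7.86 and 7.92 at 1 month (difference -2.64 ± 0.08, adjusted p = 7.3e-14 by limma). *Cep152*, the scaffold that binds PLK4 at the start of duplication, ranged from 7.86 to 8.47 at E14.5 and from 6.20 to 6.76 at 1 month, and fell by 1.53. Its partners at the same ring fell by smaller amounts, with 1.41 for *Cep57*, 0.90 for its paralog *Cep57l1* and 0.25 for *Cep63*. *Cep295*, which turns a new centriole into one that can act as a centrosome, fell by 1.18, and *Cep44*, which acts at the same step, by 1.04. *Cep76*, which limits repeated duplication, fell by 1.07, *Cep120*, which lengthens centrioles, by 0.72, *Cep97*, which caps their distal end, by 0.68, *Cep135*, a cartwheel and centriole wall protein, by 0.65, and *Cep85* by 0.55.

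The 5 genes of the linker and pericentriolar material also fell together, with a median of -0.53. *Cep72*, a pericentriolar protein needed for spindle pole integrity, stood far from the rest of this list. Its WT values were 7.53, 7.80 and 7.97 at E14.5 and 4.69, 5.17 and 5.72 at 1 month, a difference of -2.59 ± 0.16 (adjusted p = 2.4e-10 by limma), and *Cep70* fell by 1.33. The large scaffolds *Cep250*, which anchors the linker between the centrioles, and *Cep350* fell by 0.49 and 0.53, and *Cep68*, another linker protein, by 0.44. The WT values of *Cep250* overlapped between ages, since WT E14.5 replicate 1, a library with the length skew, was the lowest embryonic mouse.

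Of the 7 appendage genes 5 fell, 1 rose and 1 did not pass. *Cep170*, a subdistal appendage protein that anchors microtubules, took values of 13.16, 13.49 and 13.63 at E14.5 and 11.35, 11.46 and 11.61 at 1 month (difference -2.003 ± 0.07, adjusted p = 3e-13 by limma). *Cep112* took values of 7.86, 8.05 and 8.12 at E14.5 and 5.72, 5.88 and 6.11 at 1 month and fell by 2.14. *Cep128*, also a subdistal protein, fell by 1.16, and the distal appendage proteins *Cep164* and *Cep89* by 0.98 and 0.83. *Cep83*, the distal appendage protein on which the others assemble, differed by 0.05 (95% interval -0.07 to 0.17, adjusted p = 0.44 by limma), so a change of more than 0.2 lay outside its interval. *Cep19*, which is recruited to the centriole for cilium assembly, took values of 8.98, 9.10 and 9.23 at E14.5 and 10.46, 10.52 and 10.58 at 1 month. Every WT mouse of 1 month lay above every WT embryo, and *Cep19* rose by 1.42 ± 0.05 (adjusted p = 4e-13 by limma), the largest increase among the Cep genes.

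The cilium, transition zone and satellite genes were a divided list, with 4 called lower, 1 called higher and 1 not called. *Cep78*, which helps set cilium length, took values of 9.44, 9.52 and 9.81 at E14.5 and 7.81, 7.88 and 7.91 at 1 month and fell by 1.68. *Cep41*, needed for tubulin glutamylation in the cilium, fell by 1.49, *Cep162*, which links centrioles to the transition zone, by 1.05, and the satellite protein *Cep131* by 0.94. *Cep126*, another protein of the satellites, took values of 7.42, 7.68 and 7.93 at E14.5 and 8.44, 8.62 and 8.88 at 1 month and rose by 0.98 ± 0.09 (adjusted p = 6.2e-08 by limma). *Cep290*, a building block of the transition zone, took values of 8.90, 9.12 and 9.27 at E14.5 and 8.88, 9.02 and 9.28 at 1 month and differed by -0.06 (95% interval -0.24 to 0.11). *Cep95*, the gene without an assigned role, fell by 0.89.

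**Figure D3:**
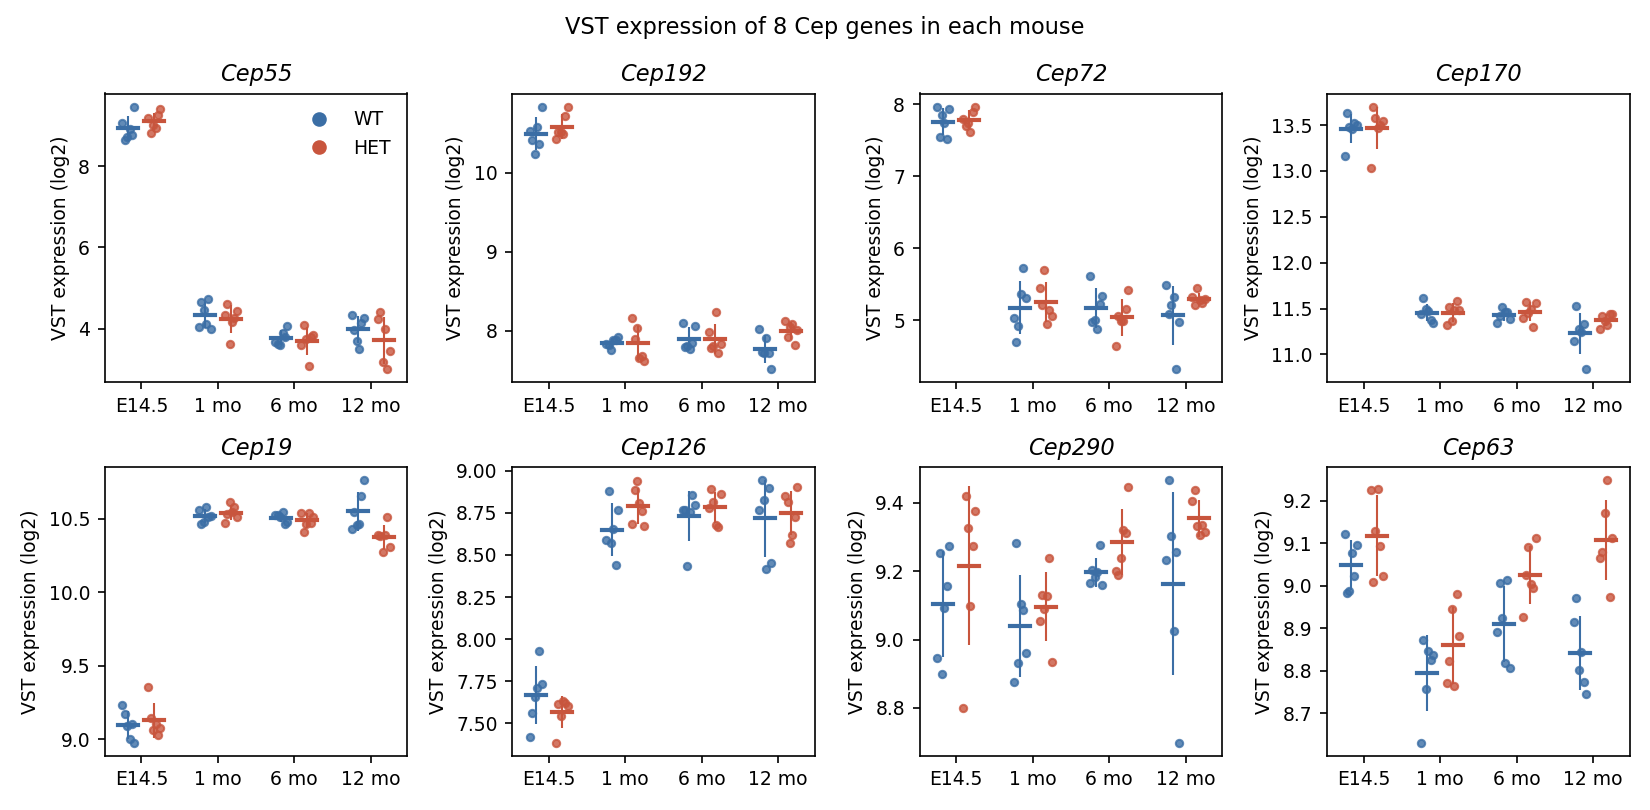
VST expression (log2) of 8 Cep genes in each of the 48 mice, by age and genotype, with the group mean as a horizontal line and the SD as a vertical bar, and a separate vertical scale for each gene. *Cep55*, *Cep192*, *Cep72* and *Cep170* are high at E14.5, *Cep19* and *Cep126* are low at E14.5, and the WT and HET values of *Cep63* at 12 months meet without overlapping.

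HET mice went through the same step, with 28 Cep genes called lower and 2 called higher (*Cep19* by 1.41 and *Cep126* by 1.23), where 42.4% and 43.7% of 17227 tested genes were called. The median difference was -1.15, against 0.02 over all tested genes, and 18 genes fell by at least 1, against 18.3% of tested genes. When HET E14.5 replicate 1 was left out, *Cep290* was also called lower in HET (-0.20, adjusted p = 0.0099 by limma), so that 31 genes were called, with a median of -1.16. Whether the step differed between the genotypes was tested with a genotype by age term. None of the 32 genes passed (percent called over all genes 0.0%), and 2 had an unadjusted p below 0.05 (3.84% of tested genes did). These were *Cep57l1* with a difference between the steps of -0.27 ± 0.12 and *Cep126* with 0.24 ± 0.11. The lowest adjusted p of limma was 0.999, and without the skewed libraries none passed and 3 had an unadjusted p below 0.05. In 30 of the 32 genes the WT step from E14.5 to 1 month was larger than the whole range of the 3 postnatal means, and in both genotypes 28 genes had their highest mean at E14.5. Neither count was made over all tested genes, so neither is read as a trait of the Cep genes.

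Other genes of the same pathways give the setting of this step. In WT all 12 mitosis genes fell, by a median of 5.16, among them Top2a (-6.09), Mki67 (-5.70) and Ccnb1 (-5.60), and the fall of *Cep55* was within their range of -6.09 to -3.28. Of 14 centriole duplication genes outside the Cep family 11 fell and none rose, with Stil at -4.16, Cenpj at -3.05 and Plk4 at -2.81. Of 14 genes of the pericentriolar material and spindle pole 12 fell, Aspm by 5.07 and Tacc3 by 3.07, and Tubg2 rose by 1.38. Of 13 appendage, linker and satellite genes 9 fell, among them the linker kinase gene Nek2 (-3.71), and 2 rose, *Cep170b* (1.58) and Crocc (0.30). Of 18 cilium genes outside the Cep family 9 fell and 5 rose, the latter with Bbs4 (0.69) and Bbs1 (0.60) among them, and the median was -0.11. The progenitor markers moved with this step. The mean level of 7 radial glia markers was 11.40 to 11.96 in WT at E14.5 and 8.69 to 9.12 at 1 month, that of 4 intermediate progenitor markers 11.15 to 12.08 and 6.46 to 7.06, and that of 5 astrocyte markers 8.26 to 8.65 and 13.15 to 13.33. The part of these cell types in the Cep values was not tested. Of 7 markers of multiciliated ependymal cells 4 rose, among them Ccdc153 (2.91) and Tmem212 (2.21), and 3 fell, among them Foxj1 (-1.36).

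Changes between 1 and 6 months were small and ran in both directions. The mice of 1 month enter both this step and the earlier one, and those of 6 months both this step and the next. In WT 3 Cep genes were called higher and 3 lower, 18.8% of the 32, against 24.6% of 17255 tested genes (12.3% in each direction), so the Cep genes were called no more often than the background. *Cep55* fell again, from values of 3.997, 4.28 and 4.73 at 1 month to 3.61, 3.74 and 4.06 at 6 months (-0.55 ± 0.17, adjusted p = 0.035 by limma). *Cep89* took values of 8.11, 8.23 and 8.57 at 1 month and 7.86, 7.95 and 8.02 at 6 months, with no overlap, and fell by 0.32 (adjusted p = 0.0083 by limma). *Cep78* also fell without overlap, by 0.19. *Cep290* rose by 0.16, *Cep120* by 0.12 and *Cep350* by 0.11. *Cep290* and *Cep350* were both no longer called without WT 1 month replicate 1, 3 or 6 and without WT 6 months replicate 1, 2 or 3, and *Cep290* also without WT 1 month replicate 5 or WT 6 months replicate 4, 5 or 6. Without WT 6 months replicate 2 the called genes were 3, *Cep120*, *Cep55* and *Cep89*.

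In HET mice 6 Cep genes were called higher and 3 lower between 1 and 6 months, 28.1% of the 32, against 26.8% of 17208 tested genes (14.0% higher and 12.8% lower). The increases were those of *Cep350* (0.24 ± 0.05), *Cep250* (0.22 ± 0.05), *Cep290* (0.19), *Cep97* (0.17), *Cep63* (0.16) and *Cep120* (0.13). *Cep55* fell by 0.55, *Cep95* by 0.22 and *Cep83* by 0.21. *Cep83* took HET values of 9.66, 9.77 and 9.91 at 1 month and 9.46, 9.56 and 9.66 at 6 months, which met without overlapping. With each mouse left out in turn, *Cep350*, *Cep250*, *Cep290*, *Cep97*, *Cep63* and *Cep83* were called in all 12 fits. *Cep120* was no longer called in 9 of the 12, *Cep55* without HET 1 month replicate 1, 2 or 6 or HET 6 months replicate 1 or 4, and *Cep95* without HET 1 month replicate 4, 5 or 6 or HET 6 months replicate 2 or 6. The genotype by age term called none of the 32 (0.0% of all genes tested), and 2 genes had an unadjusted p below 0.05, where 4.62% of tested genes did. They were *Cep83* (-0.21 ± 0.07) and *Cep97* (0.21 ± 0.10), and the lowest adjusted p of limma was 0.999. In WT 11 of the 12 mitosis genes fell further over these months, with a median of -0.78.

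From 6 to 12 months no Cep gene was called by limma in either genotype, where 0.00579% of 17283 genes were called in WT and 3.43% of 17254 genes in HET. At an unadjusted p below 0.05 there was 1 gene in WT (6.75% of tested genes), *Cep170* (-0.20 ± 0.08), and without the skewed library WT 12 months replicate 6 there was none. In HET there were 4 (15.9% of tested genes), *Cep131* (0.19 ± 0.06), *Cep19* (-0.11 ± 0.04), *Cep350* (-0.13 ± 0.05) and *Cep89* (-0.17 ± 0.07). A single gene of these was called when one mouse was left out, *Cep19* without HET 12 months replicate 5, *Cep350* without HET 6 months replicate 5 and *Cep131* without HET 6 months replicate 6.

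The second question was whether losing a copy of *Chd8* changed the Cep genes at any age. None of the 32 was called at E14.5, 1 month, 6 months or 12 months, where 0.00593%, 0.139%, 0.0927% and 0.0463% of the tested genes were called. The study's own test, DESeq2 with a batch term, reported more differentially expressed genes over these ages than the limma fits of VST values call. A gene not called here may thus differ in that test. The study supplies the results of its test for all genes at each age, and those for the Cep genes are not given here. At an unadjusted limma p below 0.05 there were 2, 3, 3 and 9 Cep genes (6.25%, 9.38%, 9.38% and 28.1%), against 4.56%, 8.8%, 7.59% and 11.6% of tested genes. The differences were small at all ages, from -0.27 to 0.32, where the median SD of the Cep genes within a group was 0.10 to 0.19.

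**Figure D4:**
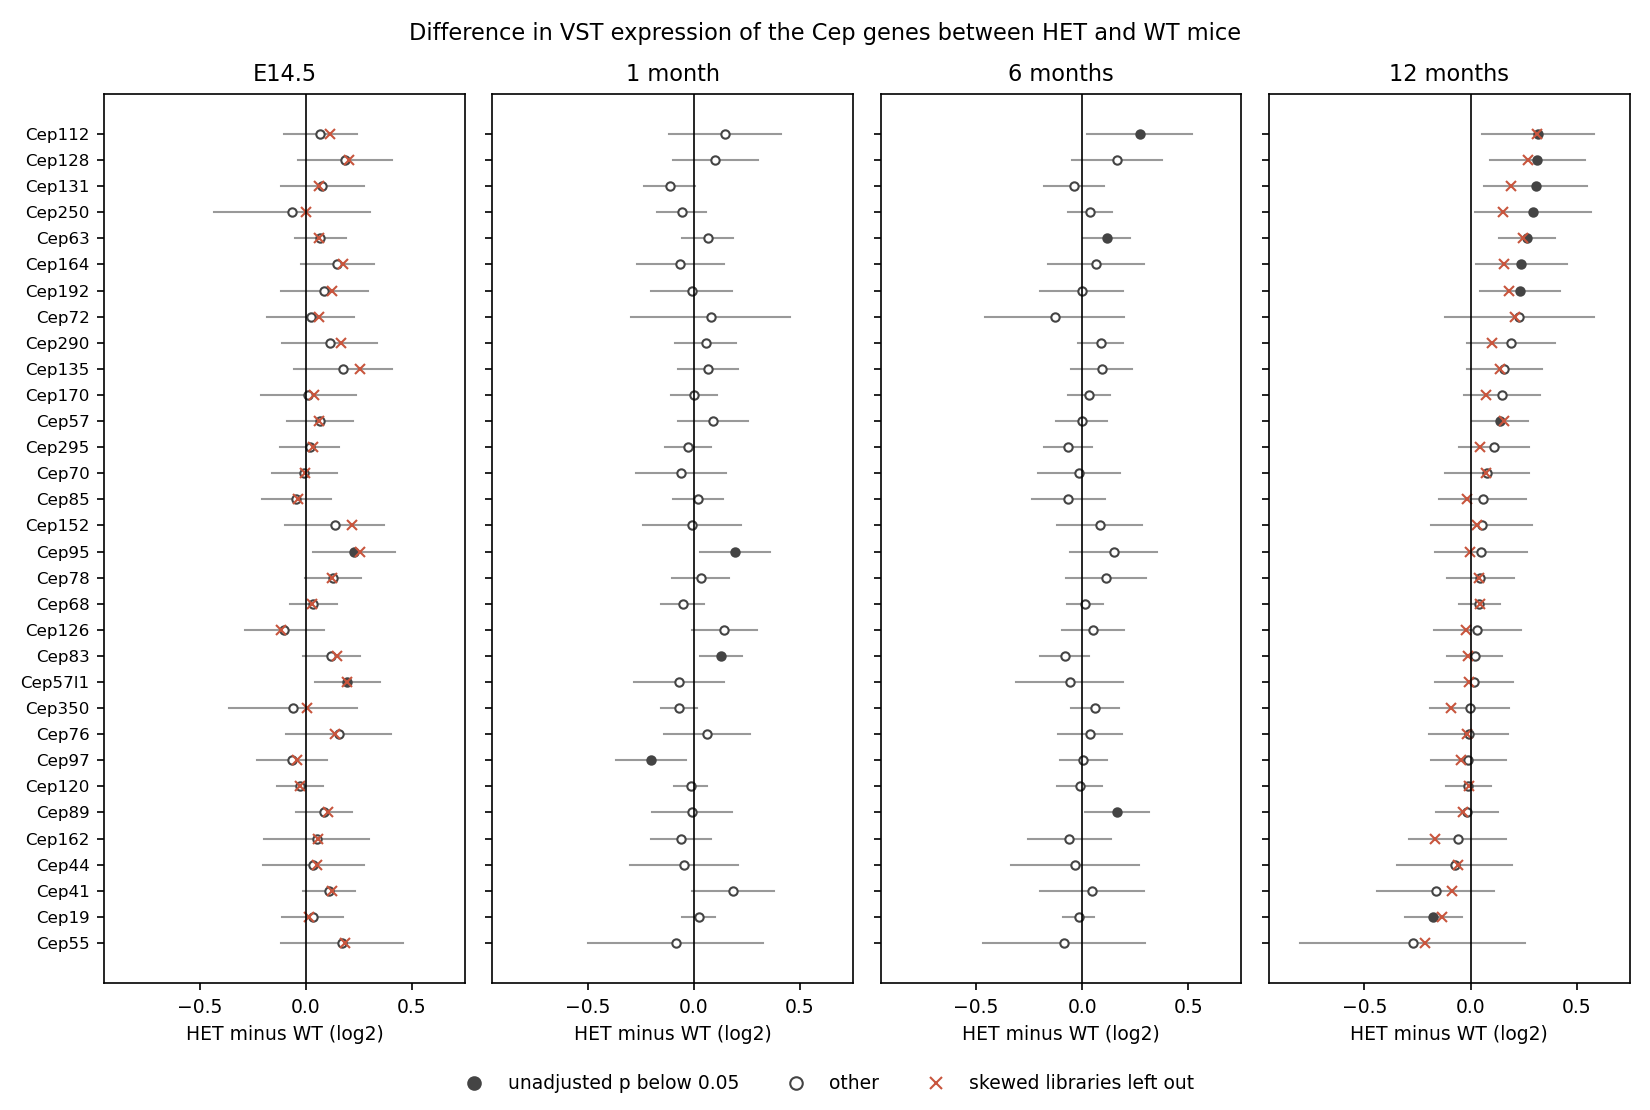
Each panel gives the HET minus WT difference in VST expression (log2) of the 32 Cep genes at one age, in the order of the 12-month differences, with bars for the 95% confidence interval of limma. Filled points had an unadjusted p below 0.05, and crosses give the value with the length-skewed libraries left out at E14.5 and 12 months. None of the points passed the adjusted threshold, and 8 of the 9 filled points at 12 months lie above 0.

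At E14.5 the HET mean was above the WT mean in 25 of the 32 genes (78.1%), where the same held for 50.4% of 16877 tested genes, with a median difference of 0.07. *Cep57l1* took values of 7.63, 7.75 and 7.96 in WT and 7.86, 7.94 and 8.07 in HET mice, which overlapped (0.20 ± 0.07, adjusted p = 0.98 by limma). *Cep95* took 7.99, 8.202 and 8.52 in WT and 8.35, 8.49 and 8.59 in HET (0.23 ± 0.09), and *Cep78* took 9.44, 9.52 and 9.81 and 9.64, 9.68 and 9.75 (0.13 ± 0.06). All 7 appendage genes were on the higher side, none of them with an unadjusted p below 0.05. The same side held 9 of 12 centriole assembly and duplication genes and 5 of 6 cilium, transition zone and satellite genes. Of the 5 linker and pericentriolar genes 2 were higher and 3 lower. All 12 mitosis genes were on the higher side, of which none had an unadjusted p below 0.05. The mean mitosis level was 10.62 to 11.46 in WT and 10.85 to 11.37 in HET. All 7 radial glia, 4 intermediate progenitor and 7 ganglionic eminence markers also had a higher HET mean (the last with a median of 0.22 and 2 genes at an unadjusted p below 0.05), and 6 of 7 neuron markers a lower one. None of these was called, and their part in the Cep values was not tested. With the posterior markers as a covariate, 23 genes were higher and none had an unadjusted p below 0.05. Without both skewed E14.5 libraries 27 genes were higher, 6 had an unadjusted p below 0.05 and the median was 0.06. With no covariate the count of 2 became 12 without WT E14.5 replicate 6 (the WT mouse with the highest mean over the Cep genes, 9.57, against 9.32 to 9.38 in the other 5), 6 without HET E14.5 replicate 1, and 1 without HET replicate 3, WT replicate 4 or WT replicate 5. Shares of all tested genes are not given for these fits, nor for such genotype fits at the later ages. Their counts are therefore not read as a trait of the Cep genes.

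At 1 month 15 genes were higher and 17 lower in HET, where 48.6% of tested genes were higher. *Cep83* took values of 9.56, 9.65 and 9.69 in WT and 9.66, 9.77 and 9.91 in HET, with 5 HET mice above every WT mouse (0.13 ± 0.05, adjusted p = 0.45 by limma). *Cep95* took 7.22, 7.31 and 7.505 in WT and 7.33, 7.58 and 7.65 in HET, also with 5 HET mice above the WT mice (0.19 ± 0.08), while *Cep97* was 9.28, 9.43 and 9.81 in WT and 9.22, 9.30 and 9.43 in HET (-0.20 ± 0.08). Without WT replicate 2 or HET replicate 1 the genes with an unadjusted p below 0.05 were 5, and without WT replicate 5 there was 1.

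At 6 months 18 genes were higher in HET, against 49.6% of tested genes, with a median of 0.02. The lowest p-values were those of *Cep112* (5.79, 6.02 and 6.27 in WT, 6.09, 6.34 and 6.54 in HET, difference 0.27 ± 0.12), *Cep89* (7.86, 7.95 and 8.02 in WT, 7.91, 8.14 and 8.30 in HET, difference 0.16 ± 0.07) and *Cep63* (8.81, 8.91 and 9.01 in WT, 8.93, 9.01 and 9.11 in HET, difference 0.12 ± 0.05). The groups overlapped in each, and the adjusted p of limma was 0.62, 0.62 and 0.64. The count of 3 fell to 0 without HET replicate 2, 3 or 6, and to 1 without HET replicate 4 or WT replicate 1, 2 or 4.

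At 12 months the Cep genes came nearest to a genotype difference. Of the 9 genes with an unadjusted p below 0.05, 8 were higher in HET, where 6.18% of 17288 tested genes met this limit on the higher side and 5.39% on the lower side. *Cep63*, whose protein works with that of *Cep152* and whose loss causes microcephaly, had the lowest adjusted p of limma. Its values were 8.75, 8.82 and 8.97 in WT and 8.97, 9.10 and 9.25 in HET. It was the only Cep gene in which every HET mouse lay above every WT mouse, a pattern seen in 0.37% of tested genes. The 2 groups met without overlapping, with 8.971 as the highest WT and 8.974 as the lowest HET value. The difference was 0.27 ± 0.06 (adjusted p = 0.21 by limma). Its gene (chr9:102488908-102528864, minus strand, mm9) overlaps Anapc13 on the opposite strand. Since only the study's methods and not the labels describe the libraries as stranded, reads of the overlap may not be told apart.

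*Cep128* took 7.09, 7.37 and 7.58 in WT and 7.43, 7.63 and 7.92 in HET (0.31 ± 0.11), with 5 HET mice above every WT mouse. *Cep57* took 8.48, 8.64 and 8.69 in WT and 8.62, 8.76 and 8.82 in HET (0.14 ± 0.06), also with 5 HET mice above. *Cep112* differed by 0.32 ± 0.12, *Cep131* by 0.31 ± 0.12, *Cep250* by 0.29 ± 0.13, *Cep164* by 0.24 ± 0.10 and *Cep192* by 0.23 ± 0.09, with overlapping groups. *Cep19* was the exception on the lower side, with 10.43, 10.50 and 10.76 in WT and 10.27, 10.39 and 10.52 in HET, 5 HET mice below every WT mouse and a difference of -0.18 ± 0.06. None of these passed the adjusted threshold. In a single fit of all 48 mice, which shares the spread between the groups, *Cep63* (adjusted p = 0.0066), *Cep131* (adjusted p = 0.081) and *Cep19* (adjusted p = 0.065) were called by limma, among 520 called genes in all, against 8 in the fit of the 12-month mice alone.

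The skewed library WT 12 months replicate 6 was the lowest or near the lowest WT mouse in several of these genes. In *Cep250* its value was 8.95, against 9.57 to 9.90 in the other WT mice, and in *Cep131* it was 8.39, against 8.81 to 9.31. In *Cep19*, whose transcript of 1718 bases is in the shortest class, this library was instead the highest WT mouse (10.76, against 10.43 to 10.65). The lower HET mean of *Cep19* thus rests in part on this library. Without it the difference of *Cep250* went from 0.29 to 0.15, that of *Cep131* from 0.31 to 0.19 and that of *Cep164* from 0.24 to 0.16, while *Cep63* stayed at 0.25, *Cep112* at 0.32 and *Cep57* at 0.16. The genes with a higher HET mean went from 22 of 32, where 51.4% of tested genes were higher, to 17 of 32, and the number of genes was again 9 with an unadjusted p below 0.05. The equal count does not say that the same genes, or as many on the higher side, met this limit. Shares of all tested genes without this library are not given, and 51.4% belongs to the fit that keeps it. With all other mice kept, the count was 5 without WT 12 months replicate 5. Of the cell type markers, the mean of the 4 intermediate progenitor genes was 6.06 to 6.55 in WT and 6.02 to 7.92 in HET at this age (median difference 0.48, 2 genes at an unadjusted p below 0.05). That of the 7 radial glia genes was 8.66 to 8.91 in WT and 8.71 to 9.39 in HET (median difference 0.30, 3 genes at an unadjusted p below 0.05). HET 12 months replicate 3 was the highest mouse in both lists, and of the 7 radial glia genes 4 were higher and 3 lower in HET. None of these was called, and their part in the Cep values was not tested. The change of the genotype difference from 6 to 12 months called no Cep gene (0.0116% of 17271 tested genes were called), and 2 genes had an unadjusted p below 0.05, where 8.53% of tested genes did. They were *Cep131* (0.34 ± 0.14) and *Cep19* (-0.16 ± 0.07), and the lowest adjusted p of limma was 0.534. Without the skewed library none was called and 2 again had an unadjusted p below 0.05.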

How the data were processed

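PolyA RNA-seq libraries were read per mouse. Per the study's methods the authors filtered and trimmed reads, aligned them to mm9 with STAR 2.5.2b, quantified transcripts with Salmon 0.11.3 and used DESeq2 1.22.2 with a batch term. The deposited table holds VST values on a log2 scale, normalized by the authors, with a floor of 2.14, and keeps no read counts, so the depth behind a value is unknown. For each gene the mean over all mice numbered 1 to 3 equaled that over all mice numbered 4 to 6, with the 8 groups pooled. A difference between those sets had thus been removed before deposit, while within a single group the 2 means could still differ. The labels and the methods name different library kits. All columns were used, and groups came from the labels.

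Each comparison was fitted with limma 3.58.1 (R 4.3.3, empirical Bayes with an intensity trend) on the mice of the compared groups, keeping genes with a mean of 0.5 or more over the floor. All 32 Cep genes described passed in each of 13 comparisons, and 1 further gene of the rule is not reported here. Genes were called at a Benjamini-Hochberg adjusted p below 0.1 over all tested genes, the level in the study's methods. P-values weigh a difference of group means against the spread between mice within the compared groups, 6 mice in each, moderated over all tested genes. The code was tested on simulated data. Text names every called Cep gene, up to 3 genes with the lowest p-value per genotype comparison (and, beyond that rule and chosen after their values were seen, all with an unadjusted p below 0.05 at 12 months, from 6 to 12 months and in the genotype by age terms), all Cep genes for the step from E14.5 to 1 month, and up to 4 genes per pathway list. The 33 genes, the role, pathway and marker lists and the alternatives were chosen with earlier results of these data known. Of the 32 genes, 30 were matched to the mm9 annotation by name or RefSeq synonym. Alternatives were another filter, prior, normalization, threshold or sample set, covariates for read depth, replicate set or posterior markers, the replicate number as a block, each mouse left out in turn, and, chosen after seeing the data, the 3 length-skewed libraries left out (skew of at least 0.25 over genes with a mean of at least 6).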

Additional observations from a re-analysis of the deposited data

Results flagged for a closer look

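In each group of 6 mice, a Cep gene is listed here when its highest or lowest mouse lay farther from the nearest other mouse than Dixon's 95% limit for 6 values, taken as a share of the group's range. Over 256 sets of 6 values 23 were listed, where chance alone flags about 1 in 20 sets, or 12.8, and 13 of the 23 lay in the 3 length-skewed libraries. The VST value of the mouse is given with the range of the other 5.

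HET E14.5 replicate 1 was low in *Cep126* at 7.39 against 7.54 to 7.63, *Cep164* at 9.20 against 9.45 to 9.57, *Cep170* at 13.03 against 13.47 to 13.69, *Cep250* at 9.32 against 10.15 to 10.50 and *Cep350* at 10.77 against 11.46 to 11.69. HET E14.5 replicate 1 was high in *Cep19* at 9.36 against 9.03 to 9.15 and *Cep57* at 10.22 against 9.88 to 10.01. WT E14.5 replicate 1 was low in *Cep162* at 8.81 against 9.20 to 9.41 and *Cep170* at 13.16 against 13.46 to 13.63. WT E14.5 replicate 1 was high in *Cep44* at 8.34 against 7.73 to 7.95. WT 12 months replicate 6 was low in *Cep85* at 8.06 against 8.44 to 8.64, *Cep162* at 7.70 against 8.17 to 8.40 and *Cep250* at 8.95 against 9.57 to 9.90.

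HET 1 month replicate 2 was low in *Cep95* at 7.33 against 7.56 to 7.65. HET 1 month replicate 3 was high in *Cep250* at 9.84 against 9.55 to 9.65. HET 12 months replicate 5 was low in *Cep89* at 7.75 against 7.93 to 8.03. HET 6 months replicate 5 was low in *Cep350* at 10.93 against 11.19 to 11.26. WT 1 month replicate 2 was low in *Cep57* at 8.18 against 8.50 to 8.66. WT 6 months replicate 2 was high in *Cep85* at 8.84 against 8.33 to 8.52. WT 6 months replicate 3 was low in *Cep126* at 8.44 against 8.76 to 8.86. WT 6 months replicate 5 was high in *Cep290* at 9.28 against 9.16 to 9.20. WT E14.5 replicate 6 was high in *Cep78* at 9.81 against 9.44 to 9.55 and *Cep89* at 9.29 against 8.97 to 9.09.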

How the results depend on the processing

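The counts of 30 called Cep genes from E14.5 to 1 month stayed at 30 in both genotypes under every alternative, except for 31 in HET when the length-skewed HET E14.5 replicate 1 was left out. Quantile normalization moved the median of all genes from 0.02 to -0.11 in both and that of the Cep genes to -0.97 in WT and -1.16 in HET. With each mouse left out in turn, the count was 30 to 30 in WT and 30 to 31 in HET for E14.5 to 1 month, 3 to 7 in WT and 6 to 10 in HET for 1 to 6 months, 0 to 0 in WT and 0 to 1 in HET for 6 to 12 months, and 0 for every genotype comparison and every genotype by age term. At an adjusted p below 0.05 the counts for 1 to 6 months were 3 in WT and 6 in HET, and a single fit of all 48 mice gave 4 in WT (without *Cep290* and *Cep350*) and 6 in HET for 1 to 6 months, and 3 for the genotype comparison at 12 months. No named gene reversed its direction. Same-numbered mice of both genotypes deviated together in only 4 of 6 pairs at E14.5 (mean correlation 0.23) and in 0, 1 and 0 pairs at the later ages, so the numbers were not taken as pairing the mice. With the replicate block no call of a genotype comparison was made (0 Cep genes at each age), and at E14.5 the genes with an unadjusted p below 0.05 were 9 instead of 2. The share of all tested genes at this limit with the block is not given here. The block gave 30 called genes in WT and in HET from E14.5 to 1 month, and 7 in WT and 8 in HET from 1 to 6 months.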
